A study of Homo sapiens with 12 samples.

Results

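Members of the SR and hnRNP families of splicing regulators, with the TRA2 proteins and the CLK kinases, were followed across 12 RNA-seq libraries of SHI-1 cells, a human acute myeloid leukemia line that carries an MLL-AF6 fusion. A gene was included if its symbol starts with SRSF or HNRNP and has no hyphen, or if it is CLK1, CLK2, CLK3, CLK4, TRA2A or TRA2B, and if its normalised count was at least 10 in at least 3 of the 12 libraries. All 39 genes with such a name passed, out of 14866 genes listed, and all 39 were at 10 or more in all 12 libraries. They are 11 SRSF genes, 2 TRA2 genes, 4 CLK genes and 22 HNRNP genes, of which 1 (HNRNPA1P10) is a pseudogene. Cells were exposed for 16 h to DMSO, the vehicle, to DSF (0.3 µM disulfiram with 1 µM copper), to NSM (5 µM niclosamide) or to both (DSF+NSM), with 3 libraries per group from independent experiments. Whether copper was also added to the DMSO and NSM cultures was not given in the sources used here. All groups are the same line, so no comparison reaches beyond SHI-1.

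SR proteins bind exonic enhancers through an RNA recognition motif and recruit the splicing machinery through a domain rich in arginine and serine, while hnRNPs coat nascent transcripts and often silence splice sites. CLK kinases phosphorylate the arginine-serine domain in the nucleus, and this governs when SR proteins leave nuclear speckles. Many of these regulators control their own level by splicing a poison exon, a cassette exon with an early stop codon that sends the transcript to nonsense-mediated decay, into their own mRNA. The values here are gene totals, so the inclusion of such exons was not measured.

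Annotated poison exons are a feature of some of these genes, and the stretches around their stop codons are shown because most of the SRSF and TRA2 genes that carry them are described further on. In GENCODE 44 on hg38, 30 of the 38 protein-coding members (78.9%) had a transcript classed for decay, against 48.1% of the 11240 tested protein-coding genes with a matching symbol. A cassette exon that holds the early stop codon was found in 13 of 38 (34.2%), against 20.9%, namely in 6 of 11 SRSF genes, both TRA2 genes, 2 of 4 CLK genes and 3 of 21 HNRNP genes (14.3%, under the share of all genes). Each line below gives 30 bases of such an exon, written 5′ to 3′ on the strand of the gene, with the stop codon in capitals.
SRSF3 (chr6:36599840-36599869, plus strand): ctcaccaccctcTGAatctgcattagccag
SRSF4 (chr1:29165994-29166023, minus strand): ttacaaggaaaaTGAgtgaatgtgggaatg
SRSF6 (chr20:43459290-43459319, plus strand): gccttttgccatTAGacgcagggtgatggt
SRSF7 (chr2:38749137-38749166, minus strand): aatttgagacggTGAtcgccgtaacagtaa
SRSF11 (chr1:70231103-70231132, plus strand): cctggttcagccTGAactatataccaggcc
TRA2A (chr7:23522274-23522303, minus strand): agattggtcagaTAGaagcacttgaatatt
TRA2B (chr3:185931757-185931786, minus strand): ctcaggaataagTGAagctgaaatttgaaa
CLK3 (chr15:74627036-74627065, plus strand): aggctgttgctgTAGctctgctgagagaca
CLK4 (chr5:178620550-178620579, minus strand): attttaaaaaatTAAatcagtctgttcatc
The SRSF3 exon is 456 bases long and its stop codon begins 31 bases into it. The SRSF7 and TRA2B exons are each 276 bases long, with the stop codon 19 and 78 bases in.

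The normalised counts of a library summed to 13963864 to 15330685 in DMSO and DSF, to 16477426 to 17516910 with NSM and to 22657898 to 25584448 with DSF+NSM. If the smallest common step of a table were 1 read, the depth would be 10206614 to 19031007 reads. The authors' scaling therefore gave DSF+NSM libraries larger sums. After scaling to equal sums, the median log2 change of all 13502 tested genes against DMSO moved from 0.03 to -0.74 in DSF+NSM and from 0.01 to -0.25 in NSM. Changes are given on the authors' scale, and a direction that turned under equal sums is marked. NSM replicate 3 stood apart, with Spearman correlations across genes of 0.939 and 0.950 with its fellow replicates, against 0.980 to 0.996 for all other pairs within a group. All 9 myeloid markers were present (MPO at 54162 to 62640 in DMSO), with CSF1R and CD14 under 100 there, and the B-cell gene MS4A1 was at 0 in every library. In bulk RNA, a lower level in every cell and fewer cells at a high level cannot be told apart.

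Before any drug effect, the members spanned a wide range. Per kilobase of canonical transcript, the mean normalised count in DMSO was highest for HNRNPA1 (13921), HNRNPA2B1 (9210), HNRNPC (5758) and HNRNPK (5462), abundant hnRNPs that package nascent RNA. SRSF2 was the highest SRSF gene at 3480 per kilobase. The CLK kinases were lower, at 531 for CLK2, 479 for CLK1, 376 for CLK3 and 78.8 for CLK4, which was the lowest of all 39 members on this scale.

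**Figure D1:**
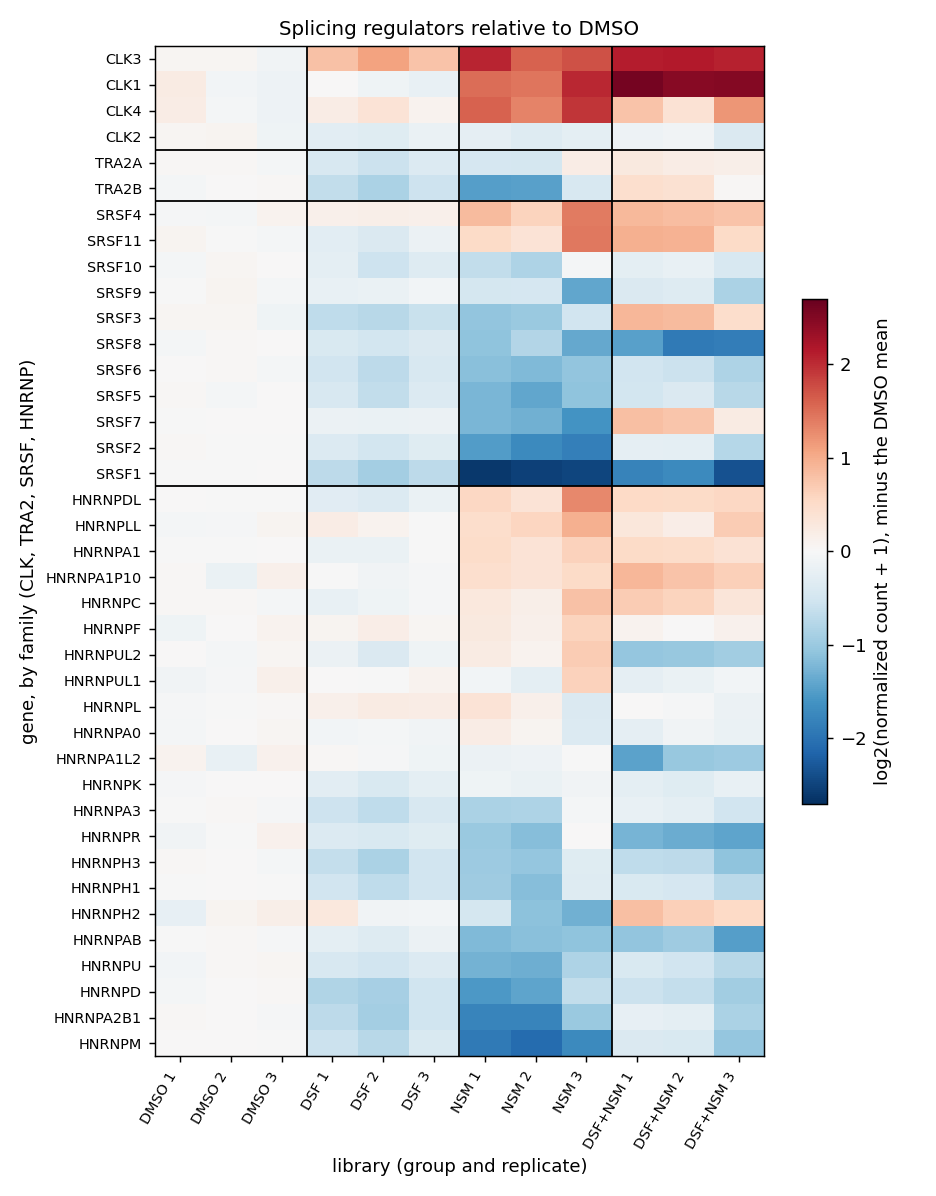
Log2(normalised count + 1) of the 39 members (rows, by family and within a family by the NSM change) in the 12 libraries (columns), minus the DMSO mean of the gene. CLK1 and CLK3 are high in all NSM and DSF+NSM libraries, while SRSF1 is low there. SRSF3, SRSF7, TRA2B and HNRNPH2 are higher in DSF+NSM than in NSM. NSM replicate 3 differs from its fellow replicates in HNRNPR, HNRNPA3 and TRA2B among others.

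In the fit of all 12 libraries on the authors' scale, a larger share of these genes than of all genes passed in each comparison with DMSO. With DSF, 12 of 39 members passed the limma test at an adjusted p under 0.05 (30.8%), 1 higher and 11 lower, while 17.8% of all genes passed, 11.9% higher and 5.95% lower. With NSM, 31 members passed (79.5%), 11 higher and 20 lower, beside 49.1% of all genes (25.4% higher, 23.7% lower). With DSF+NSM, 27 passed (69.2%), 12 higher and 15 lower, beside 52.8% of all genes (28.3% higher, 24.5% lower). The median log2 change of the members was -0.27, -0.51 and -0.21 in the 3 comparisons, and that of all genes was 0.05, 0.01 and 0.03. Under equal sums the split in DSF+NSM became 2 higher and 26 lower (67.5% of all genes passed), with a members' median of -0.99 beside -0.74 for all genes. The members below the median of all genes numbered 33, 25 and 23 in the same order. Equal sums shift all genes almost alike, so these counts could hardly change with the scaling. The DSF count is the least firm of these. It was 21 without NSM replicate 3, where 41.1% of all genes passed. It was between 2 and 4 (6.75% to 10.3% of all genes) without any 1 of DMSO replicates 1, 2 and 3 or DSF replicates 1 and 2. Without DMSO replicate 1, DMSO replicate 2 or DSF replicate 2 it was 3, 3 and 2 of 39. These are smaller shares than the 8.57%, 7.84% and 6.75% of all genes. Counted by groups that do not overlap, 3 members were higher and 26 lower with DSF (33.4% and 27.6% of all genes), 12 higher and 20 lower with NSM (29.1% and 27.9%), and 14 higher and 20 lower with DSF+NSM (36.4% and 32.9%). These comparisons share the DMSO libraries.

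**Figure D2:**
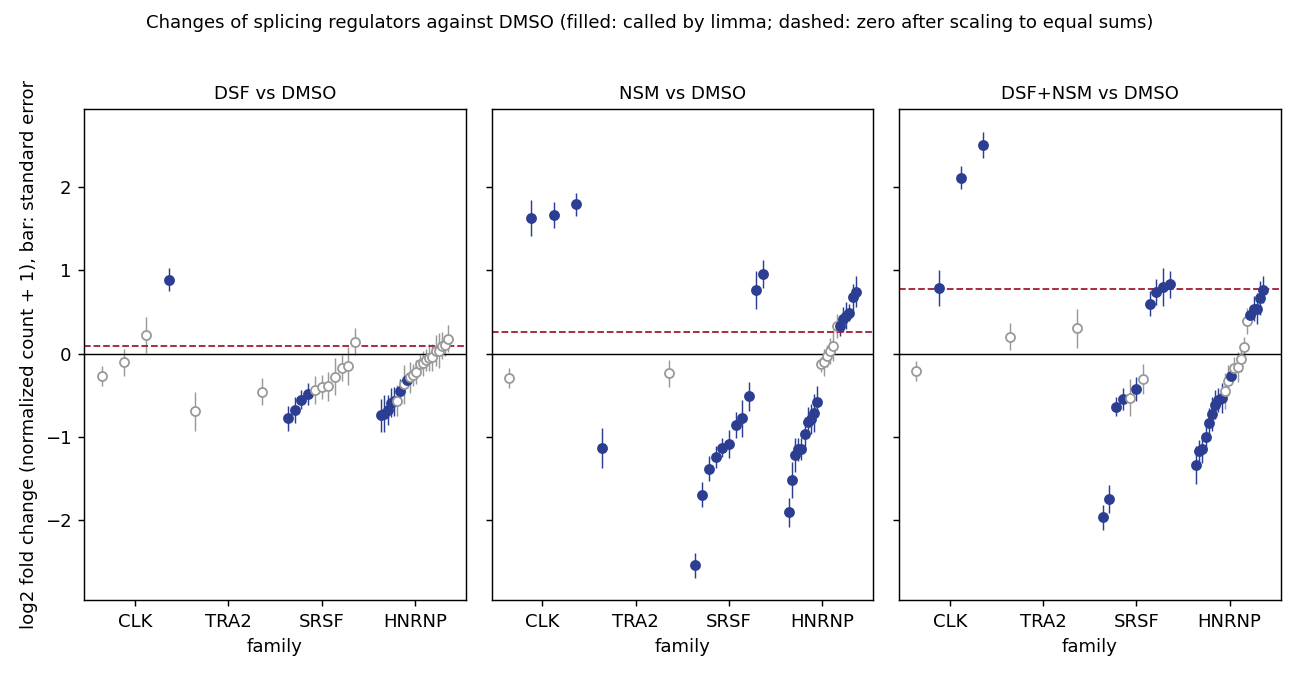
Log2 fold change against DMSO (vertical axis, on normalised count + 1) of each member by family, with the standard error as a bar and filled points for adjusted p under 0.05. The dashed line marks where no change would lie after scaling to equal sums. Most SRSF genes lie below zero with NSM, and CLK1 and CLK3 stay above the dashed line with DSF+NSM, where SRSF3, SRSF7 and all HNRNP genes fall below it.

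CLK1 and CLK3 were the members with the largest rises, in both NSM and DSF+NSM. CLK1, which phosphorylates SR proteins and whose transcripts are partly held in the nucleus with introns retained, was at 1022, 835 and 795 normalised counts in DMSO replicates 1, 2 and 3. It was at 887, 810 and 759 with DSF, at 2497, 2404 and 3596 with NSM, and at 5299, 4798 and 4867 with DSF+NSM. DMSO and DSF overlapped, and the other 2 groups lay above both and apart from each other. CLK1 rose 3.17-fold with NSM (log2 change 1.66 ± 0.16, SE, n = 3 per group, limma adjusted p = 6.4e-06) and 5.67-fold with DSF+NSM (2.50 ± 0.16, limma adjusted p = 1.4e-07). With DSF its log2 change was -0.10 ± 0.16 (limma adjusted p = 0.696). Adding DSF to NSM raised CLK1 by a further 0.84 (limma adjusted p = 0.0015), which was 0.32 under equal sums (limma adjusted p = 0.108).

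CLK3, a kinase of the same family, was the only member that rose with DSF. Its values were 718, 721 and 650 in DMSO and 1209, 1477 and 1190 with DSF, and no DSF library reached down to the DMSO range. They were 2887, 2106 and 2305 with NSM and 3011, 3085 and 2920 with DSF+NSM, above both other groups. The log2 changes against DMSO were 0.89 with DSF (limma adjusted p = 0.0011), 1.79 with NSM (limma adjusted p = 1.2e-06) and 2.11 with DSF+NSM (limma adjusted p = 1.6e-07), each with an SE of 0.14. All 3 calls held without each library in turn and under equal sums. CLK3 overlaps EDC3 and another gene on the opposite strand by 1180 exonic bases, so its reads may be shared.

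CLK4, the least abundant kinase of the family, was at 226, 188 and 178 in DMSO and at 226, 254 and 209 with DSF, so these groups overlapped. It was at 595, 501 and 752 with NSM but at 333, 259 and 453 with DSF+NSM. The NSM libraries were above all others, and the DSF+NSM libraries lay between. CLK4 rose by 1.62 ± 0.22 with NSM (limma adjusted p = 7.2e-05) and by 0.79 ± 0.22 with DSF+NSM (limma adjusted p = 0.0087), the latter being 0.01 under equal sums (limma adjusted p = 0.985). Against NSM, DSF+NSM was lower, with a difference of -0.84 (limma adjusted p = 0.0092). A single factor per library cannot change the ratio of CLK1 to CLK4 within a library, though a factor that varies by gene could. This ratio was 4.44 to 4.52 in DMSO, 3.19 to 3.93 with DSF, 4.20 to 4.80 with NSM and 10.7 to 18.5 with DSF+NSM.

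CLK2 did not follow its relatives. It was at 1175, 1195 and 1058 in DMSO, at 938, 913 and 1002 with DSF, at 958, 901 and 945 with NSM and at 1032, 1070 and 874 with DSF+NSM. Its log2 changes against DMSO were -0.26, -0.29 and -0.21, with limma adjusted p of 0.145, 0.0608 and 0.160. Under equal sums all 3 passed as lower, at -0.36, -0.56 and -0.99, and without NSM replicate 3 the first 2 passed. The ratio of CLK1 to CLK2 was 0.699 to 0.870 in DMSO, 0.758 to 0.946 with DSF, 2.61 to 3.81 with NSM and 4.49 to 5.57 with DSF+NSM. The 4 kinases together made up 0.0189% to 0.0225% of the library sum in DMSO, 0.0207% to 0.0225% with DSF, 0.0359% to 0.0439% with NSM and 0.0366% to 0.0402% with DSF+NSM.

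**Figure D3:**
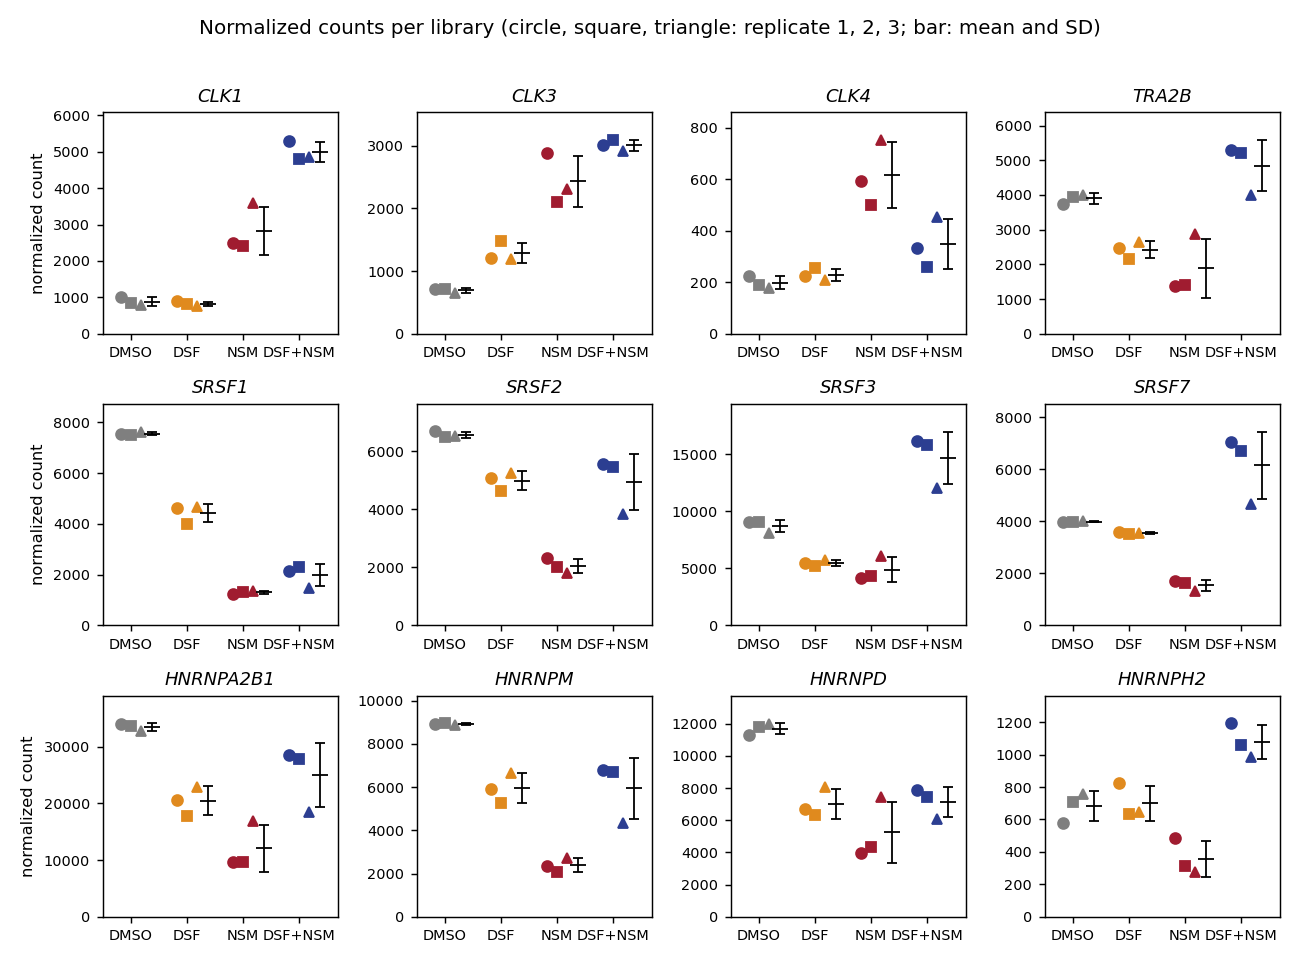
Normalised counts (vertical axes, from 0) of 12 members in each library on the authors' scale, by group, with symbols for replicates 1, 2 and 3 and a bar for the mean ± SD. CLK1 and CLK3 are highest with DSF+NSM, SRSF1 is low with NSM and with DSF+NSM, and SRSF3, SRSF7, TRA2B and HNRNPH2 have their highest mean with DSF+NSM and their lowest with NSM. After scaling to equal sums, the DSF+NSM changes of SRSF3, SRSF7, TRA2B and HNRNPH2 against DMSO are below zero.

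The SRSF genes mostly fell, above all with NSM. All 11 passed with NSM, 9 lower and 2 higher, with a median log2 change of -1.09. With DSF 4 fell, none rose and 7 did not pass. With DSF+NSM 5 fell and 4 rose, and under equal sums 7 were lower and none was higher. Without NSM replicate 3, 9 were still lower and 2 higher with NSM, and 7 were lower with DSF. In that fit 59.8% of all genes passed with NSM and 41.1% with DSF. Summed over the family, the share of the library was 0.320% to 0.336% in DMSO, 0.210% to 0.235% with DSF, 0.147% to 0.185% with NSM and 0.169% to 0.201% with DSF+NSM. By this share, which follows equal sums, the DMSO range lay above those of all 3 treatments. On the authors' scale the summed family was at 0.74 of DMSO with DSF and 0.59 with NSM, but at 1.006 with DSF+NSM.

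SRSF1, the founding SR protein and a splicing factor with oncogenic activity, fell furthest of all members. It was at 7549, 7492 and 7609 in DMSO and at 4614, 3996 and 4652 with DSF. It was at 1237, 1309 and 1351 with NSM and at 2152, 2292 and 1471 with DSF+NSM. No 2 of the 4 groups overlapped. Its log2 change was -0.78 ± 0.15 with DSF (limma adjusted p = 0.0047), -2.54 ± 0.15 with NSM (limma adjusted p = 2.1e-07) and -1.96 ± 0.15 with DSF+NSM (limma adjusted p = 6.4e-07). NSM left it at 0.172 of its DMSO level. It shares 1890 exonic bases with another gene on the same strand, so its reads may be shared. SRSF1 was higher with DSF+NSM than with NSM by 0.58 (limma adjusted p = 0.010), which was 0.06 under equal sums (limma adjusted p = 0.718) and was lost without DSF+NSM replicate 2.

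SRSF3, the smallest SR protein and a factor that couples splicing to mRNA export, went in opposite directions in NSM and DSF+NSM on the authors' scale. It was at 9044, 9016 and 8060 in DMSO, at 5445, 5207 and 5719 with DSF, at 4179, 4363 and 6115 with NSM and at 16172, 15816 and 11995 with DSF+NSM. The DSF+NSM libraries were above, and those of either drug alone below, every DMSO library. Its log2 changes were -0.67 (limma adjusted p = 0.013), -0.85 (limma adjusted p = 7.8e-04) and 0.74 (limma adjusted p = 0.0017), each ± 0.16. Under equal sums the DSF+NSM change turned to -0.04 (limma adjusted p = 0.798). DSF+NSM exceeded NSM under both scalings, by 1.59 (limma adjusted p = 1.3e-05) and by 1.08 (limma adjusted p = 6.8e-05).

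SRSF7, the closest relative of SRSF3 and likewise an export adaptor, moved in the same directions in NSM and DSF+NSM. It was at 3975, 3990 and 4005 in DMSO and at 3579, 3499 and 3557 with DSF, then at 1707, 1615 and 1304 with NSM and at 7047, 6717 and 4679 with DSF+NSM. All 4 groups were apart. The log2 change was -0.17 with DSF (limma adjusted p = 0.481), -1.38 with NSM (limma adjusted p = 1.9e-05) and 0.60 with DSF+NSM (limma adjusted p = 0.0056), which turned to -0.18 under equal sums (limma adjusted p = 0.246). DSF+NSM exceeded NSM by 1.98 (limma adjusted p = 2.0e-06), or by 1.47 under equal sums (limma adjusted p = 6.7e-06).

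Ratios to SRSF1 within a library, which a single factor per library cannot change, were higher in every NSM library than in DMSO, and higher again in every DSF+NSM library, for both genes. A factor that varies by gene and library would not cancel, and whether the values hold such a factor was not tested. SRSF3 to SRSF1 was 1.06 to 1.20 in DMSO, 1.18 to 1.30 with DSF, 3.33 to 4.53 with NSM and 6.90 to 8.15 with DSF+NSM. SRSF7 to SRSF1 was 0.526 to 0.533 in DMSO, 0.765 to 0.875 with DSF, 0.965 to 1.38 with NSM and 2.93 to 3.28 with DSF+NSM. Every DSF+NSM library thus had more SRSF3 and SRSF7 per SRSF1 than any other library.

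**Figure D4:**
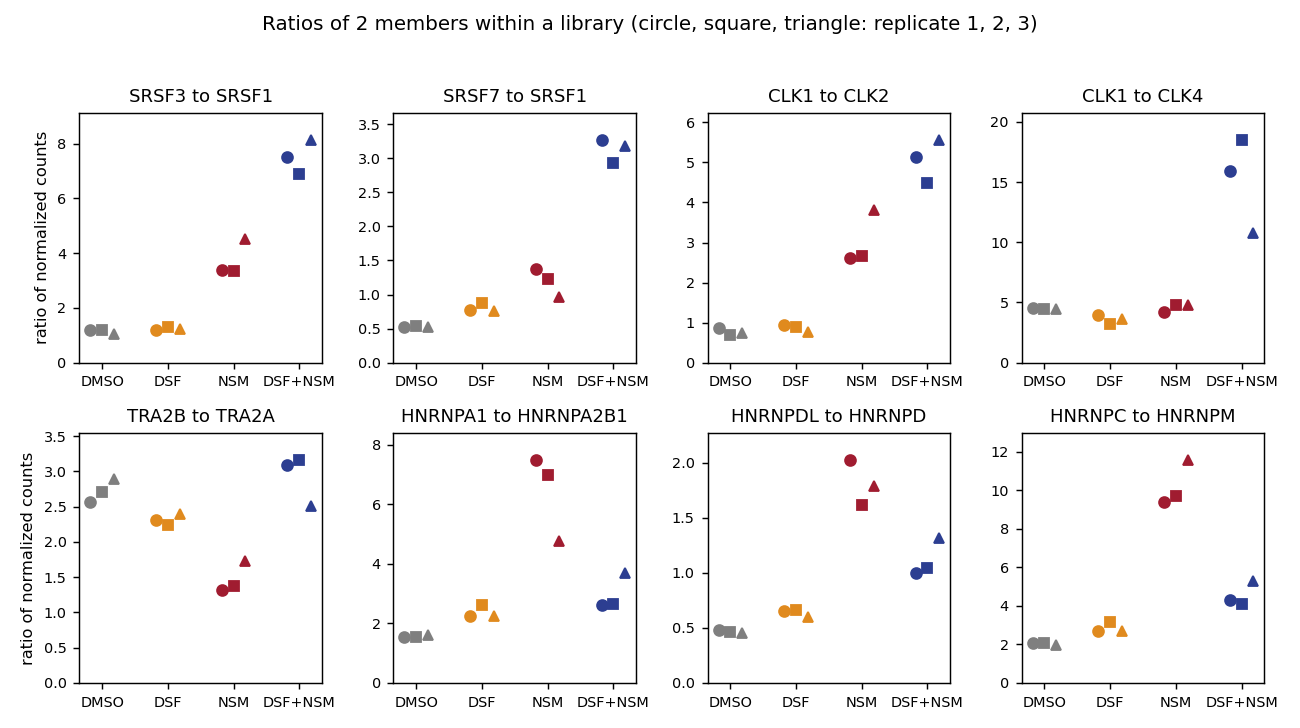
Ratio of the normalised counts of 2 members within each library (vertical axes, linear from 0), by group, with symbols for replicates 1, 2 and 3. A ratio does not depend on a single factor per library, but a factor that varies by gene and library would not cancel. SRSF3 to SRSF1, SRSF7 to SRSF1 and CLK1 to CLK4 are highest with DSF+NSM, while HNRNPA1 to HNRNPA2B1, HNRNPC to HNRNPM and HNRNPDL to HNRNPD are highest with NSM.

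Among the other SRSF genes, SRSF2, an SR protein that is mutated in some myeloid neoplasms, was at 6698, 6489 and 6526 in DMSO and at 5077, 4634 and 5269 with DSF. It was at 2316, 1999 and 1815 with NSM and at 5574, 5458 and 3841 with DSF+NSM. The NSM libraries lay below all others, and it fell there, with a log2 change of -1.69 (limma adjusted p = 3.1e-06) and with DSF+NSM of -0.43 (limma adjusted p = 0.028), a call lost without DSF+NSM replicate 3 or any 1 of DMSO replicates 1, 2 and 3. SRSF2 overlaps MFSD11 on the opposite strand by 823 exonic bases and the strand setting of the counting was not given, so its reads may be shared. SRSF6, an SR protein with paired RNA recognition motifs, fell with every treatment, by -0.55 with DSF (limma adjusted p = 0.0073; not without DSF replicate 2), -1.13 with NSM (limma adjusted p = 1.1e-05) and -0.64 with DSF+NSM (limma adjusted p = 6.2e-04).

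SRSF4 and SRSF11 were the only SRSF genes that rose with NSM. SRSF4 was at 2184, 2138 and 2370 in DMSO, at 2454, 2500 and 2441 with DSF, at 4059, 3368 and 5883 with NSM and at 4103, 3976 and 3814 with DSF+NSM. Both groups with NSM lay above the other 2, and the log2 changes were 0.95 with NSM (limma adjusted p = 4.8e-04) and 0.83 with DSF+NSM (limma adjusted p = 0.0011), the second being 0.05 under equal sums (limma adjusted p = 0.806). SRSF11 changed by 0.77 with NSM (limma adjusted p = 0.014) and by 0.80 with DSF+NSM (limma adjusted p = 0.010), values that were 0.50 (limma adjusted p = 0.0698) and 0.02 (limma adjusted p = 0.945) under equal sums. Its NSM replicate 3 was at 8273, beside 4401 and 3986 in the other 2, and the NSM change without it was 0.44 (limma adjusted p = 0.0065).

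SRSF8, a copy of SRSF2 with few introns, was at 989, 1058 and 1043 in DMSO and at 772, 731 and 790 with DSF. It was at 483, 593 and 394 with NSM and at 374, 275 and 282 with DSF+NSM, the lowest values of the gene. Its log2 change was -1.09 with NSM (limma adjusted p = 2.1e-04) and -1.74 with DSF+NSM (limma adjusted p = 4.0e-06). Reads of the near-identical coding parts of SRSF2 and SRSF8 may be assigned to either gene, so their values are uncertain.

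The 8 SRSF and TRA2 genes with a cassette exon for decay and the 5 without (SRSF1, SRSF2, SRSF5, SRSF8 and SRSF10) are set side by side as a description, since this split was drawn with the values known. The 5 are not free of decay, as all 11 SRSF genes have a transcript classed for it. They lack only an internal exon that holds the early stop codon and overlaps no exon of the canonical transcript. With DSF+NSM against DMSO, 4 of the 8 were higher and 1 lower, with a median log2 change of 0.45, and of the 5 none was higher and 4 were lower, with a median of -0.55. With NSM the 8 had 2 higher and 5 lower with a median of -0.81, and the 5 had 5 lower with a median of -1.24. With DSF the medians were -0.37 and -0.43. Under equal sums none of these 13 genes was higher with DSF+NSM and 8 were lower. The medians are on the authors' scale, under which all genes had medians of 0.03, 0.01 and 0.05.

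The TRA2 genes encode SR-like activators that bind GA-rich exonic enhancers. TRA2B was at 3732, 3952 and 4009 in DMSO, at 2465, 2151 and 2646 with DSF, at 1380, 1419 and 2869 with NSM and at 5303, 5219 and 4002 with DSF+NSM. NSM replicate 3 was above both other NSM libraries and above every DSF library. TRA2B fell, with a log2 change of -1.13 with NSM (limma adjusted p = 0.0017), and of -1.48 without that library (limma adjusted p = 1.0e-07). It changed by -0.69 with DSF (limma adjusted p = 0.0597; called without NSM replicate 1 or 3) and by 0.30 with DSF+NSM (limma adjusted p = 0.299), where it turned to -0.48 under equal sums (limma adjusted p = 0.0719). Against NSM alone, DSF+NSM was higher by 1.43 (limma adjusted p = 5.1e-04), or by 0.92 under equal sums (limma adjusted p = 0.0041). TRA2A passed in none of the 3 comparisons with DMSO, at -0.46, -0.23 and 0.21, but in all 3 without NSM replicate 3, and its DSF+NSM change turned to a called -0.58 under equal sums (limma adjusted p = 0.0071). The ratio of TRA2B to TRA2A was 2.56 to 2.90 in DMSO, 2.24 to 2.39 with DSF, 1.31 to 1.73 with NSM and 2.50 to 3.16 with DSF+NSM.

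The HNRNP genes divided. With DSF 7 of 22 fell and none rose, with NSM 10 fell and 6 rose, and with DSF+NSM 10 fell and 5 rose, a split that became 17 lower and none higher under equal sums. The median log2 changes were -0.24, -0.12 and -0.29. Without NSM replicate 3, the counts were 10 lower with DSF, 10 lower and 5 higher with NSM, and 12 lower and 6 higher with DSF+NSM. In that fit 41.1%, 59.8% and 67.7% of all genes passed, in the same order. As a share of the library sum, the 22 genes stood at 1.63% to 1.65% in DMSO, 1.17% to 1.31% with DSF, 1.11% to 1.42% with NSM and 0.892% to 0.925% with DSF+NSM. By this share, which follows equal sums, the DSF+NSM libraries were lowest and overlapped no other group. The order turned on the authors' scale. There the summed family was at 0.957 of DMSO with DSF+NSM, 0.809 with DSF and 0.895 with NSM.

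**Figure D5:**
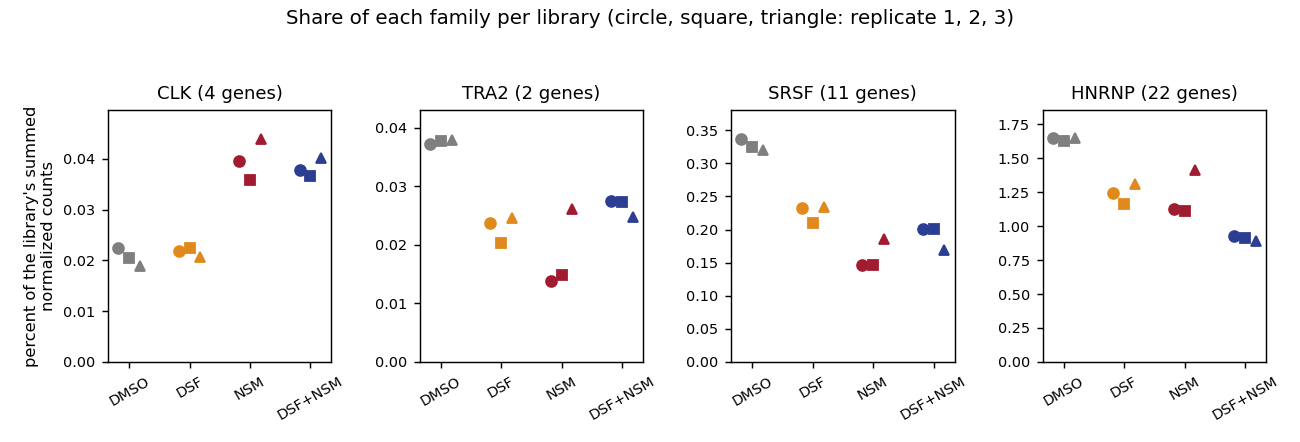
Share of the library's summed normalised counts (percent, vertical axes from 0) taken by each family in each library, with symbols for replicates 1, 2 and 3. The SRSF and HNRNP shares, which follow equal sums, are below DMSO in every treated library. On the authors' scale the SRSF sum with DSF+NSM is at 1.006 of DMSO. The CLK share is raised in all NSM and DSF+NSM libraries.

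HNRNPM, which silences exons by binding GU-rich RNA, fell most among the hnRNPs with NSM, though not with DSF or DSF+NSM. It was at 8913, 8960 and 8859 in DMSO and at 5921, 5286 and 6662 with DSF, then at 2373, 2095 and 2713 with NSM and at 6803, 6722 and 4329 with DSF+NSM. Every treated library was below DMSO and the NSM libraries were below all others. Its log2 change was -1.90 ± 0.17 with NSM (limma adjusted p = 3.7e-06), -0.59 with DSF (limma adjusted p = 0.033) and -0.61 with DSF+NSM (limma adjusted p = 0.0092). DSF+NSM exceeded NSM by 1.29 (limma adjusted p = 1.1e-04), or by 0.78 under equal sums (limma adjusted p = 7.6e-04).

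HNRNPA2B1, one of the core hnRNPs and a reader of RNA sorting signals, was at 34031, 33562 and 32646 in DMSO and at 20552, 17787 and 22914 with DSF. It was at 9736, 9644 and 16794 with NSM and at 28561, 27861 and 18497 with DSF+NSM. NSM replicate 3 and DSF+NSM replicate 3 stood nearer to each other than to their own groups. The gene overlaps NFE2L3 and CBX3 on the opposite strand by 1575 exonic bases. HNRNPA2B1 fell, with a log2 change of -0.72 with DSF (limma adjusted p = 0.039) and of -1.52 with NSM (limma adjusted p = 1.2e-04), while the DSF+NSM change was -0.45 (limma adjusted p = 0.101) and -1.23 under equal sums (limma adjusted p = 1.3e-04). HNRNPA1, its partner in the core particle and the most abundant member, was at 51930, 52031 and 52405 in DMSO, at 46151, 46232 and 51626 with DSF, at 72964, 67419 and 80266 with NSM and at 74688, 73365 and 68096 with DSF+NSM. It rose by 0.49 with NSM (limma adjusted p = 0.0015) and by 0.47 with DSF+NSM (limma adjusted p = 0.0019), but the second turned to a called -0.32 under equal sums (limma adjusted p = 0.0053). The ratio of HNRNPA1 to HNRNPA2B1 was 1.53 to 1.61 in DMSO, 2.25 to 2.60 with DSF, 4.78 to 7.49 with NSM and 2.62 to 3.68 with DSF+NSM, so it was raised in every treated library. HNRNPA1 has many processed copies, among them the member HNRNPA1P10, which was 0.46 higher with NSM (limma adjusted p = 0.032; lost under equal sums and without DMSO replicate 1 or 2 or NSM replicate 1) and 0.77 with DSF+NSM (limma adjusted p = 0.0015; -0.01 under equal sums), and reads may be assigned among them.

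HNRNPD (AUF1), which binds AU-rich mRNA and promotes its decay, and its paralog HNRNPDL moved apart. HNRNPD was at 11295, 11801 and 11997 in DMSO, at 6697, 6322 and 8085 with DSF, at 3964, 4342 and 7416 with NSM and at 7871, 7445 and 6100 with DSF+NSM. HNRNPDL was at 5429, 5409 and 5404 in DMSO, at 4361, 4184 and 4813 with DSF, at 8032, 7014 and 13256 with NSM and at 7849, 7756 and 8030 with DSF+NSM. HNRNPD lay below DMSO in every treated library. HNRNPD fell with DSF (-0.74, limma adjusted p = 0.026), NSM (-1.22, limma adjusted p = 3.8e-04) and DSF+NSM (-0.72, limma adjusted p = 0.0097). HNRNPDL rose by 0.74 with NSM (limma adjusted p = 0.0052) and by 0.54 with DSF+NSM (limma adjusted p = 0.026), the latter turning to -0.24 under equal sums (limma adjusted p = 0.246). The ratio of HNRNPDL to HNRNPD was 0.451 to 0.481 in DMSO, 0.595 to 0.662 with DSF, 1.62 to 2.03 with NSM and 0.997 to 1.32 with DSF+NSM.

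The H group, which binds G-tracts, split as well. HNRNPH1 fell with DSF (-0.57, limma adjusted p = 0.042), NSM (-0.82, limma adjusted p = 0.0022) and DSF+NSM (-0.53, limma adjusted p = 0.023), and HNRNPH3 too, at -0.67 (limma adjusted p = 0.024), -0.78 (limma adjusted p = 0.0036) and -0.83 (limma adjusted p = 0.0021). HNRNPH2, encoded on the X chromosome, was at 579, 708 and 758 in DMSO, at 823, 631 and 647 with DSF, at 484, 315 and 275 with NSM and at 1192, 1056 and 986 with DSF+NSM. DMSO and DSF overlapped, NSM lay below both and DSF+NSM above. HNRNPH2 fell, with a log2 change of -0.96 with NSM (limma adjusted p = 0.0020) and rose by 0.66 with DSF+NSM (limma adjusted p = 0.016), which turned to -0.12 under equal sums (limma adjusted p = 0.613) and was lost without DMSO replicate 1 or DSF+NSM replicate 1. It shares 362 exonic bases with a read-through gene of RPL36A on the same strand.

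Several hnRNPs were lowest with DSF+NSM. HNRNPR, an RNA-binding protein related to SYNCRIP, was at 3894, 4120 and 4545 in DMSO, at 3257, 3135 and 3320 with DSF, at 2089, 1891 and 4208 with NSM and at 1756, 1647 and 1554 with DSF+NSM. NSM replicate 3 lay within the DMSO range while its fellow replicates were well below it. The log2 change was -1.34 with DSF+NSM (limma adjusted p = 3.8e-04) and -0.71 with NSM (limma adjusted p = 0.022), which was -1.07 without NSM replicate 3 (limma adjusted p = 2.1e-07) and lost its call without DMSO replicate 2 or 3 or NSM replicate 1 or 2. HNRNPUL2, a relative of the nuclear scaffold protein HNRNPU, was at 3693, 3554 and 3803 in DMSO, at 3292, 2805 and 3399 with DSF, at 4305, 3916 and 5891 with NSM and at 1777, 1819 and 1927 with DSF+NSM. It fell to 0.4998 of its DMSO level with DSF+NSM (limma adjusted p = 1.1e-04), its DSF+NSM libraries being the lowest, while the NSM change was 0.33 (limma adjusted p = 0.0765). HNRNPUL2 shares 2391 exonic bases with a read-through gene on the same strand. HNRNPA1L2, a processed copy of HNRNPA1, fell with DSF+NSM (-1.15, limma adjusted p = 8.4e-05), with -0.11 for NSM (limma adjusted p = 0.610). HNRNPAB, in contrast, fell alike with NSM (-1.14, limma adjusted p = 2.5e-05) and DSF+NSM (-1.17, limma adjusted p = 1.4e-05). Its NSM libraries (3547, 3692 and 3804) and DSF+NSM libraries (3905, 4169 and 2882) overlapped.

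HNRNPC, which binds uridine tracts and sorts mRNA from small nuclear RNA, was at 18614, 18574 and 17487 in DMSO, at 15876, 16733 and 17806 with DSF, at 22245, 20344 and 31406 with NSM and at 29308, 27633 and 22961 with DSF+NSM. It changed by 0.41 with NSM (limma adjusted p = 0.041), a call lost without NSM replicate 3 (0.22, limma adjusted p = 0.0814), any 1 of the DMSO and DSF libraries or DSF+NSM replicate 2. With DSF+NSM it changed by 0.54 (limma adjusted p = 0.010), and by -0.24 under equal sums (limma adjusted p = 0.124). HNRNPU fell with DSF (-0.45, limma adjusted p = 0.046), NSM (-1.15, limma adjusted p = 3.9e-05) and DSF+NSM (-0.56, limma adjusted p = 0.0052), but 4281 of its exonic bases lie antisense to COX20 and another gene. HNRNPK, a poly(C)-binding protein, fell, with a log2 change of -0.32 with DSF (limma adjusted p = 0.033) and of -0.26 with DSF+NSM (limma adjusted p = 0.031). HNRNPLL, a regulator of CD45 splicing, rose by 0.67 with NSM (limma adjusted p = 0.0038), or by 0.41 under equal sums (limma adjusted p = 0.0763).

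The remaining members moved less or in fewer comparisons. SRSF5 fell in all 3 treatments, with log2 changes of -0.49 with DSF (limma adjusted p = 0.025), -1.24 with NSM (limma adjusted p = 1.4e-05) and -0.55 with DSF+NSM (limma adjusted p = 0.0039). SRSF9 fell with NSM (-0.78, limma adjusted p = 0.012), or by less without NSM replicate 3 (-0.46, limma adjusted p = 0.0057). SRSF10 (-0.51, limma adjusted p = 0.030) and HNRNPA3 (-0.58, limma adjusted p = 0.022) also fell with NSM, calls lost without NSM replicate 1 or 2 or any 1 of the DMSO libraries. On the opposite strand, HNRNPA3 overlaps NFE2L2 by 3509 exonic bases and SRSF9 overlaps GATC by 1725, so their reads may be shared. HNRNPF rose with NSM (0.33, limma adjusted p = 0.044), a call lost without any 1 of 10 libraries, NSM replicate 3 among them, and under equal sums (0.06). HNRNPA0, HNRNPL and HNRNPUL1 passed in none of the 6 comparisons, the interaction included, on the authors' scale.

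The DSF calls of HNRNPA2B1, HNRNPD, HNRNPH1, HNRNPH3, HNRNPK, HNRNPM and HNRNPU, and that of SRSF5, were each lost without any 1 of DMSO replicates 1, 2 and 3 or DSF replicates 1 and 2, and those of HNRNPA2B1, HNRNPH1, HNRNPK and HNRNPU also without DSF replicate 3. Only those of CLK3 and SRSF1 held without each of the 12 libraries. The DSF+NSM calls of HNRNPH1, HNRNPK and HNRNPDL were also lost without any 1 of the 3 DMSO libraries. With NSM, 25 of the 31 calls held without each library, and with DSF+NSM 22 of 27 did.

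The interaction was taken as the log2 change under both drugs less that of DSF and that of NSM, and asks whether the drugs act on a gene other than additively. It passed for 20 of 39 members (51.3%), 16 higher and 4 lower, beside 26.1% of all genes (12.1% higher, 14% lower). Of the SRSF genes 6 were higher and none lower, of the TRA2 genes 2 higher, of the CLK genes 1 higher and 2 lower, and of the HNRNP genes 7 higher and 2 lower. SRSF3 (2.27 ± 0.22, limma adjusted p = 5.4e-05), SRSF7 (2.15 ± 0.22, limma adjusted p = 6.2e-05) and TRA2B (2.12 ± 0.33, limma adjusted p = 7.4e-04) had the largest values. HNRNPM (1.88), HNRNPA2B1 (1.79), SRSF2 (1.66), HNRNPH2 (1.59) and SRSF1 (1.35) followed, with limma adjusted p from 2.0e-04 to 0.0019. Under equal sums, where all genes had a median of -0.40, the counts were 12 higher and 8 lower (35.4% of all genes passed), and SRSF3, SRSF7 and TRA2B kept 1.85, 1.73 and 1.71.

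The lower side of the interaction held HNRNPUL2 (-1.11, limma adjusted p = 0.0021), CLK4 (-1.06, limma adjusted p = 0.023), HNRNPA1L2 (-0.997, limma adjusted p = 0.0071) and CLK3 (-0.57, limma adjusted p = 0.048). The CLK3 call was lost without any 1 of 10 libraries, all but NSM replicates 2 and 3, those of HNRNPA3 and HNRNPH1 without any 1 of 10 and 5 libraries, and that of CLK4 without DMSO replicate 2 or 3, DSF replicate 2 or DSF+NSM replicate 1 or 2. CLK1 was on the higher side (0.94, limma adjusted p = 0.0091), with 0.53 under equal sums (limma adjusted p = 0.0934). CLK1 and CLK4, a pair of paralogs with NSM changes of 1.66 and 1.62, thus had interactions of opposite sign on the authors' scale.

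Directly against DSF, 19 members differed in DSF+NSM, 13 higher and 6 lower, beside 43.1% of all genes (21.7% higher, 21.4% lower). CLK1 (2.61), SRSF3 (1.41), CLK3 (1.22) and SRSF11 (1.08) were the largest on the higher side and SRSF8 (-1.31), SRSF1 (-1.19) and HNRNPA1L2 (-1.10) on the lower. Under equal sums 3 were higher and 23 lower (61.1% of all genes passed), CLK1, SRSF3 and CLK3 being higher at 1.92, 0.73 and 0.54. Directly against NSM, 17 differed, 12 higher and 5 lower, beside 38.6% of all genes (20.3% higher, 18.3% lower), and 7 were higher and 18 lower under equal sums, where 54.7% of all genes passed. SRSF7 (1.98), HNRNPH2 (1.63), SRSF3 (1.59) and TRA2B (1.43) led the higher side, and HNRNPUL2 (-1.33) and HNRNPA1L2 (-1.04) the lower. Without NSM replicate 3, 26 members differed from NSM, 19 higher and 7 lower, and 49% of all genes did.

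Other parts of the splicing and decay machinery were read from 5 lists. Of all genes, 17.8% passed with DSF, 49.1% with NSM and 52.8% with DSF+NSM. The shares were 0%, 66.7% and 50% for kinases and importers, and 0%, 54.5% and 72.7% for SR-related proteins. They were 13.3%, 86.7% and 46.7% for core factors and 30.8%, 53.8% and 69.2% for hnRNP-type proteins with other symbols. Decay factors, at 10%, 40% and 30%, were below all genes in each comparison. Of 6 tested kinases and importers of SR proteins, none passed with DSF, 3 were higher and 1 lower with NSM, and 3 were higher with DSF+NSM, PRPF4B by 0.76 (limma adjusted p = 0.025), DYRK1A by 0.65 (limma adjusted p = 0.029) and SRPK2 by 0.48 (limma adjusted p = 0.018). Of 11 SR-related proteins, none passed with DSF, 5 were higher and 1 lower with NSM, and 8 were higher with DSF+NSM, led by LUC7L (1.18, limma adjusted p = 1.0e-04), PNN (1.05, limma adjusted p = 0.0012) and RBM39 (1.01, limma adjusted p = 6.1e-05). Of 15 core U1 and U2 factors, which recognise the splice sites, 1 was higher and 1 lower with DSF, 4 higher and 9 lower with NSM, and 6 higher and 1 lower with DSF+NSM, where SF3A2 (1.00, limma adjusted p = 9.9e-04), SF3A1 (0.89, limma adjusted p = 2.0e-04) and SNRPA (0.81, limma adjusted p = 0.0023) rose most. Of 10 factors of nonsense-mediated decay, 1 was higher with DSF, 4 with NSM and 3 with DSF+NSM, UPF3B (0.99, limma adjusted p = 0.0018), SMG6 (0.89, limma adjusted p = 0.0040) and SMG9 (0.64, limma adjusted p = 0.0031), and none was lower.

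Of 13 hnRNP-type proteins with other symbols, 1 was higher and 3 lower with DSF, 4 higher and 3 lower with NSM, and 5 higher and 4 lower with DSF+NSM. SYNCRIP, a relative of HNRNPR, fell, with a log2 change of -1.52 (limma adjusted p = 7.6e-05) and PCBP3 rose by 1.48 (limma adjusted p = 0.0040) with DSF+NSM. All of these counts are on the authors' scale, where the shares of all genes called are those given for the members, and rises smaller than 0.775 with DSF+NSM would lie below zero under equal sums.

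Promoters, 250 bases before to 50 after the start, were found in RefSeq (GRCh38.p14) for 35 of the 39 members. The E-box CACGTG, which MYC with MAX and other factors bind, was present in 9 of the 35 (CLK2, CLK4, HNRNPA3, HNRNPD, HNRNPDL, HNRNPH2, HNRNPH3, HNRNPM and HNRNPUL1), beside 10.3% of 9225 promoters of tested genes and 7.43% of all 27305. The cAMP response element TGACGTCA and the core amino acid response element TGATGNAA were in none of the 35, beside 3.27% and 1.68% of tested genes, and the core heat shock element GAANNTTC was in 3 (HNRNPA2B1, HNRNPC and SRSF8), beside 4.55%. Both strands were searched and no member promoter held 2 different motifs. The promoters of the member that rose most with DSF+NSM and of the SRSF and HNRNP genes that fell most with NSM are shown, 5′ to 3′ on the strand of the gene, with an E-box in capitals where there is one.
CLK1 (chr2:200864609-200864908, minus strand): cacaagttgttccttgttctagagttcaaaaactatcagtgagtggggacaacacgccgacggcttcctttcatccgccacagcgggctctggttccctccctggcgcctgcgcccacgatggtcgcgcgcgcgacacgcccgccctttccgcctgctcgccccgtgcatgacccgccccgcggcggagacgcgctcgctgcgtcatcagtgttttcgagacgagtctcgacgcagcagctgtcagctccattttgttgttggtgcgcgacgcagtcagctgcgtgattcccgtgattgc
SRSF1 (chr17:58007197-58007496, minus strand): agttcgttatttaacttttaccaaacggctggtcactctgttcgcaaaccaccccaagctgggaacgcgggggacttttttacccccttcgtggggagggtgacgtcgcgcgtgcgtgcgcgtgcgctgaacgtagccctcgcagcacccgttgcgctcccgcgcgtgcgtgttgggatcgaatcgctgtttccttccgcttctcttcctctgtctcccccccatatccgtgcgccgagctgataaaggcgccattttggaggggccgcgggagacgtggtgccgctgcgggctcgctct
HNRNPM (chr19:8444725-8445024, plus strand): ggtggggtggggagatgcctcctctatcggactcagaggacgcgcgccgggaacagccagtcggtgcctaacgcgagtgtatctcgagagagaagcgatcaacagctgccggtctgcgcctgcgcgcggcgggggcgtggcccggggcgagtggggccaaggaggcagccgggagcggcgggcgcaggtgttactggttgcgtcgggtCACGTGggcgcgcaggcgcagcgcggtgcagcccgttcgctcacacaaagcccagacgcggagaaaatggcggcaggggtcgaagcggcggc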

How the data were processed

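SHI-1 RNA was sequenced from 12 libraries in 4 groups. The deposited signal is a normalised read count per gene that the authors computed over 24 libraries, of which 12 are analysed here, and it held too few whole multiples of its smallest step (30.4% to 31.0% of nonzero values, within 0.001 of a step) to recover reads. The submitters' processing notes name bcl2fastq 2.19, Trimmomatic, Bowtie2, Picard, featureCounts, DESeq2 and hg38, while the study's methods name other alignment tools, so the step that made each value is uncertain. Library sums, the strand setting and copper in control cultures limit levels as stated beside the results.

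Values were taken as log2(value + 1). Genes at 10 or more in at least 3 libraries (13502) were fitted in limma 3.58.1 (R 4.3.3; trend, robust), with 4 group means in 1 fit, and adjusted by Benjamini-Hochberg over all of them at 0.05. Fold changes of low genes are understated by the pseudocount. The fit was tested on simulated data. Named genes were all TRA2 and CLK genes, a set of well-known SRSF and HNRNP genes, and the 3 called members per family with the largest rise and fall against DMSO or in the interaction, with a mean of at least 50. Of each further list, up to 3 called genes with the largest change with DSF+NSM were named. Members and lists were chosen with earlier results of these data known. Alternatives were other scalings, pseudocounts, filters, library weights, a replicate block, fits of only the groups compared, and each library left out. Sequences came from hg38 with GENCODE 44 and from RefSeq. Python 3.11.15, numpy 2.4.6, pandas 2.3.3 and matplotlib 3.10.9 were used. P-values measure the spread among these libraries.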

Additional observations from a re-analysis of the deposited data

Results flagged for a closer look

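The response to DSF+NSM differed from the added responses to each drug for 20 of 39 members by limma's interaction term. Among the kinases and TRA2 genes the log2 interaction was 0.94 for CLK1, -0.57 for CLK3, -1.06 for CLK4, 0.90 for TRA2A and 2.12 for TRA2B. Among SRSF genes it was 1.35 for SRSF1, 1.66 for SRSF2, 2.27 for SRSF3, 1.04 for SRSF6 and 2.15 for SRSF7. Among HNRNP genes it was 1.79 for HNRNPA2B1, 1.03 for HNRNPU, 0.86 for HNRNPH1, 1.24 for HNRNPD, 1.88 for HNRNPM and 1.59 for HNRNPH2, and below zero for HNRNPA1L2 (-0.997) and HNRNPUL2 (-1.11). The values of CLK1, TRA2A and HNRNPH1 were no longer called under equal sums, at 0.53, 0.48 and 0.44. With 3 libraries per group, no library was tested as an outlier.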

How the results depend on the processing

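With DSF, 12 members were called, beside 17.8% of all genes. The count was 26 when only the groups compared were fitted (with or without NSM replicate 3), beside 54%. With library weights it was 31, beside 60.5%, and also 31 without NSM replicate 3, beside 61.7%. Without 1 library it was from 2 to 21, beside 6.75% to 41.1%. For DSF+NSM against NSM the count was 17 (38.6% of all genes). It was 11 for only the groups compared (18.3%) and 35 with library weights (72.4%). With library weights and without NSM replicate 3 it was 27 (54.6%). Without 1 library it was from 15 to 26, beside 28% to 49% of all genes. The interaction gave 20 (26.1%), or 34 with library weights (66.2%), whose estimation did not converge. Leaving out 1 library gave 25 to 32 for NSM, beside 40.1% to 59.8% of all genes. It gave 22 to 34 for DSF+NSM, beside 44.3% to 67.7%. Pseudocounts of 0.1 and 10 lost and gained no call.

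Scaled to equal sums, 51 of 234 log2 changes turned sign, of which 23 were called under at least 1 scaling and 28 under neither, TRA2B against DMSO (-0.48) among the latter. The called ones follow. Against DMSO they were TRA2A -0.58, SRSF3 -0.043, SRSF7 -0.18, HNRNPA1 -0.32, HNRNPC -0.24, HNRNPDL -0.24, HNRNPH2 -0.12, HNRNPA1P10 -0.01 and HNRNPF -0.71. Against DSF they were CLK2 -0.63, TRA2A -0.023, HNRNPA1 -0.10, HNRNPC -0.028, HNRNPK -0.63, HNRNPH1 -0.64, HNRNPD -0.67, SRSF4 -0.0020, HNRNPA3 -0.45, SRSF10 -0.60 and HNRNPH2 -0.058. Against NSM they were CLK2 -0.43, SRSF6 -0.025 and HNRNPC -0.39. With library weights, DSF+NSM against NSM turned to 0.13 for HNRNPA1, 0.31 for HNRNPH3 (0.28 without NSM replicate 3), 0.25 for SRSF4 and 0.15 for HNRNPDL. The cause was not tested. Over named genes and settings, 3724 values stayed on their side of the threshold (69 of them, called in neither fit, changed sign), 150 lost the call, 182 gained it and 24 reversed with a call.

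Whether replicate numbers pair the libraries was not settled. Same-numbered pairs correlated at -0.064 to 0.278, with 2 of 18 over 0.1, and different-numbered at -0.233 to 0.239, with 3 of 36 over 0.1. For 6 of the 12 libraries the best match had their own number. The group means of 3 libraries were taken off first, so low correlations cannot exclude pairing. A replicate block gave 11, 30, 29, 19, 17 and 19 calls, first for the 3 comparisons with DMSO (DSF, NSM, then both), next for both drugs against DSF and against NSM, and last for the interaction. In the same order, 18.7%, 50.7%, 53.9%, 44.3%, 40% and 27% of all genes passed. Depth per gene is uncertain because reads could not be recovered, and precision is limited by 3 libraries per group.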
